A study of Mus musculus with 24 samples.

Results

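The 8 genes described here encode the constant regions of the mouse immunoglobulin heavy chain: Ighm, Ighd, Ighg3, Ighg1, Ighg2b, Ighg2c, Ighe and Igha. They were taken by symbol from the raw count tables, in which each matched a single row, and they are 8 of the 27179 genes listed. RNA had been sequenced from lymph node B cells of C57BL/6 mice sorted as CD3- B220+ CD138-, in 24 libraries: 4 genotypes were each taken at 3 stages with 2 biological replicates. Cells were naive, or had been held for 48 h in CD40L + IL-4 or in LPS + IL-4. The control genotype was Cd23T/+, which carries the Cd23-Cre transgene with Spi1 not floxed. PU.1 cKO mice (cKO below) were Spi1fl/fl Cd23T/+, so that Spi1, which encodes PU.1, was deleted from the B cell stage at which CD23 is expressed. SpiB KO mice were Spi1fl/fl Cd23+/+ Spib-/-, with floxed Spi1 and no Cre. PU.1 SpiB DKO mice (DKO below) were Spi1fl/fl Cd23T/+ Spib-/-. SpiB KO therefore differs from control not by Spib alone but also by the floxed Spi1 and the missing Cre transgene, which touches each interaction too. DKO differs from SpiB KO by the Cre transgene as well as by the deletion of Spi1. The study describes deletion of the floxed Spi1 exon as incomplete in naive DKO cells, which limits every naive DKO comparison, the naive interactions and the differences between naive and cultured DKO effects. The sort removed cells with CD138 on their surface, naive or cultured alike, and CD138 is the usual mark of plasma cells. The CD40L + IL-4 libraries have a count table of their own, so for that stage the culture and the table cannot be told apart. The labels attach the same extraction text, which speaks of CD40L + IL-4, to every sample, and the stage was taken from the sample titles.

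The constant region decides the class of an antibody. A naive B cell makes IgM and IgD from the same long transcript, in which the rearranged variable segment is spliced either to the exons of Ighm or, further along, to those of Ighd. Class switching later joins the variable segment to a constant gene lying downstream and removes the DNA in between. Before a gene is switched to, its own I promoter makes a germline transcript that includes the constant exons but codes for no antibody. In mouse B cells IL-4 induces the germline transcripts of Ighg1 and Ighe, LPS alone those of Ighg3 and Ighg2b, interferon gamma those of Ighg2c, and TGF-beta those of Igha. Counts over the constant exons add germline and switched messages together, and secreted and membrane forms together. A level of Ighg1 given here is therefore an amount of RNA with Ighg1 exons and not a share of switched cells, and fewer cells of a type and less RNA per cell cannot be told apart.

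All 8 genes lie on chromosome 12 of GRCm38, on the minus strand, and the order named above is their order along the chromosome, with Ighm nearest the joining segments. In the RefSeq annotation Ighm spans chr12:113418826-113422730, Ighd chr12:113407535-113416324, Ighg3 chr12:113357442-113361232 and Ighg1 chr12:113326541-113330523. Further downstream are Ighg2b at chr12:113304314-113307933, Ighg2c at chr12:113287389-113288932, Ighe at chr12:113269263-113273248 and Igha at chr12:113256204-113260236. The start of Igha is 162.494 kb from that of Ighm. The 4 IgG genes are recent duplicates of each other, so their reads could in principle be confused. One part in which they differ is the short exon that encodes the hinge, the flexible link between the antigen-binding arms and the stem, whose cysteines join the heavy chains. That exon is shown for the 4 genes because these are the copies whose counts had to be told apart. Each is printed as the coding strand, 5′ to 3′, read from the GENCODE vM21 transcripts of GRCm38, with the in-frame cysteine codons in capitals.

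Ighg3, exon 2, chr12:113360529-113360576, minus strand: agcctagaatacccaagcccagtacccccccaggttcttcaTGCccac
Ighg1, exon 2, chr12:113329844-113329882, minus strand: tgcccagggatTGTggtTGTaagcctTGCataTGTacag
Ighg2b, exon 2, chr12:113307261-113307326, minus strand: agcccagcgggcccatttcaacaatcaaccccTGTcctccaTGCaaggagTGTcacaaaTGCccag
Ighg2c, exon 2, chr12:113288263-113288325, minus strand: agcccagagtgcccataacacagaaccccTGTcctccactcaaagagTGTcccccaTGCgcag

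The Ighg3 hinge holds 1 cysteine codon, those of Ighg1 and Ighg2b hold 4 and that of Ighg2c holds 3. The first exons of the 4 IgG genes, each 291 bases long, were identical at 78.4 to 88.3% of positions. Stretches of 75 bases shared exactly with another gene made up 1.24% of the coding sequence windows of Ighg3, 1.75% of those of Ighg2b and 0.526% of those of Ighg2c, and 0% of those of Ighg1, Ighm, Ighd, Ighe and Igha. For stretches of 50 bases the shares were 3.39% in Ighg3, 0.883% in Ighg1, 9.07% in Ighg2b and 5.75% in Ighg2c, and 0% in the other genes. The read length is not given in the sources used here. Since uniquely mapped reads alone were counted, a read that matched another gene equally well should have been dropped. Whether reads from similar but not identical stretches were given to the wrong gene was not tested. Of the GENCODE coding sequence of Ighg2c, 212 bases lie outside the RefSeq gene, so reads from them may not have been counted.

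Total counts per library were 14231188 to 18194629 in naive cells, 9598674 to 61640683 after CD40L + IL-4 and 22757630 to 73658850 after LPS + IL-4. Levels are given as CPM, each count scaled to the library total, and 3 counts came to 0.0407 to 0.313 CPM. The log2 change of Spib in SpiB KO and DKO lay between -5.50 and -3.83 at every stage. Spi1 fell by 1.54, 1.24 and 0.63 in cKO of naive, CD40L + IL-4 and LPS + IL-4 cells, and in DKO its log2 change was -0.63, -1.73 and -0.11, the last without passing the test (adjusted p = 0.45). The naive Spi1 change was thus smaller in DKO than in cKO. The floxed allele loses a part of Spi1, so counts over the whole gene are only a partial check of the deletion. From read coverage of the floxed exon, the study reports complete removal in CD40L + IL-4 cells. It describes deletion with LPS + IL-4 as similarly efficient. All 7 B cell markers listed were present in each of the 24 libraries. Naive SpiB KO and DKO libraries also held RNA of 5 plasmacytoid dendritic cell markers, which summed to 1602 to 2446 CPM, against 193 to 311 CPM in naive libraries with intact Spib. The summed level of 5 T cell markers was 242 to 359 CPM against 9.98 to 31.4 CPM in the same groups. Cd4 and Cd8a made up most of it, and Cd3e was at most 0.682 CPM. Macrophage and monocyte markers, 5 in number, summed to 52.2 to 77.6 CPM in the former and 13.0 to 23.6 CPM in the latter. In CD40L + IL-4 cells their sum was 8.84 to 11.1 CPM in cKO and DKO against 41.0 to 60.2 CPM in control and SpiB KO. Their part in the results was not tested.

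In control cells Ighm exceeded the other 7 genes at every stage. In each culture 6 of the 8 genes changed, where 48.8% (CD40L + IL-4) and 63.9% (LPS + IL-4) of all genes tested did. Ighm had 6812 and 7124 CPM in naive cells, 7959 and 9079 CPM after CD40L + IL-4 and 6135 and 5915 CPM after LPS + IL-4. Ighd, which follows Ighm on the same transcript, stood at 1599 and 1753 CPM in naive cells and fell to 260 and 323 CPM after CD40L + IL-4 (log2 change -2.70, SE 0.40, adjusted p = 1.38e-05). After LPS + IL-4 it was at 241 and 115 CPM (log2 change against naive -3.43, SE 0.42, adjusted p = 4.83e-07). These p-values come from edgeR's quasi-likelihood test with Benjamini-Hochberg adjustment over all genes tested, as do all those that follow.

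Ighg1 and Ighe were the genes that rose. Ighg1 had 4.50 and 1.12 CPM in naive control cells, 272 and 173 CPM after CD40L + IL-4 and 131 and 150 CPM after LPS + IL-4. Its log2 rise over naive cells was 6.09 (SE 0.41, adjusted p = 3.32e-10) with CD40L + IL-4 and 5.43 (SE 0.40, adjusted p = 5.82e-10) with LPS + IL-4. The naive pair differed from each other severalfold, so that without naive control replicate 1 these rises were 7.50 and 6.84 and without replicate 2 they were 5.38 and 4.72. Ighe was not counted once in the 8 naive libraries, where 3 counts would have been 0.165 to 0.211 CPM. It reached 60.2 and 46.5 CPM after CD40L + IL-4 and 31.7 and 28.4 CPM after LPS + IL-4, at least 220.4-fold and at least 135-fold above 3 counts in a naive control library.

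Ighg2b, Ighg2c and Igha were lower in cultured than in naive control cells. Ighg2b went from 4.03 and 13.1 CPM to 1.41 and 1.15 CPM with CD40L + IL-4 (log2 change -2.89, SE 0.65) and to 3.82 and 2.98 CPM with LPS + IL-4 (-1.50, SE 0.54). Ighg2c went from 1.26 and 4.50 CPM to 0.794 and 0.521 CPM (-2.26, SE 0.61) and to 1.85 and 1.33 CPM (-1.03, SE 0.50). For both genes naive control replicate 2 was the high library. Without it the Ighg2b change with LPS + IL-4 was -0.50 (adjusted p = 0.499), the Ighg2c change with CD40L + IL-4 was -1.16 (adjusted p = 0.166) and the Ighg2c change with LPS + IL-4 turned to 0.07 (adjusted p = 0.932). The fall of Ighg2b with CD40L + IL-4 passed without that library, at -1.89. Without naive control replicate 1 the Ighg2c changes were -2.87 and -1.64. Without LPS + IL-4 control replicate 2 the Ighg2c change with LPS + IL-4 also missed the threshold (-0.83, adjusted p = 0.277). Igha fell from 3.77 and 2.67 CPM to 0.529 and 0.938 CPM (-2.34, SE 0.46) and to 0.352 and 0.461 CPM (-3.11, SE 0.42), and both calls held in each alternative tried. Ighg3, at 7.67 and 2.32 CPM in naive cells, 4.32 and 4.79 CPM after CD40L + IL-4 and 8.30 and 3.78 CPM after LPS + IL-4, overlapped between the stages and did not pass.

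Counting calls, 6 of the 8 members passed with CD40L + IL-4, where 48.8% of all genes tested did, and 6 passed with LPS + IL-4, where 63.9% of all genes did. A pass needed an adjusted p under 0.15 and a fold over 1.5, the thresholds of the study's methods. Tests of a difference between effects, which follow further on, needed the adjusted p alone. Between the cultures, 5 members passed against 41.2% of all genes: Ighd, Ighg1 and Ighe were lower and Ighg2b and Ighg2c higher after LPS + IL-4. None was secure against the choice of library. Ighd (-0.73) was -0.55 without CD40L + IL-4 replicate 2, -0.33 without LPS + IL-4 replicate 2 and -1.32 without LPS + IL-4 replicate 1. Ighg1 (-0.66) was lost without replicate 1 of either culture, at -0.32 and -0.55. Ighg2b (1.39) and Ighg2c (1.23) were lost without either CD40L + IL-4 library or LPS + IL-4 replicate 1, and Ighe (-0.83) without any of the 4 libraries. Ighm, at -0.50 with an adjusted p of 0.00372, was below the fold and passed it without CD40L + IL-4 replicate 1 (-0.61). Ighm in LPS + IL-4 differed from naive cells by -0.39 (adjusted p = 0.0116), below the fold required, and this turned to 0.61 (adjusted p = 0.0055) under quantile normalization. Ighm in CD40L + IL-4 differed from naive cells by 0.11 (adjusted p = 0.507), by 0.81 (adjusted p = 0.000889) under quantile normalization and by -0.0095 without CD40L + IL-4 control replicate 2, so no direction is given for either. Scaling by library totals in place of TMM moved the median of all genes by 0.18 in each comparison of a culture with naive cells.

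**Figure D1:**
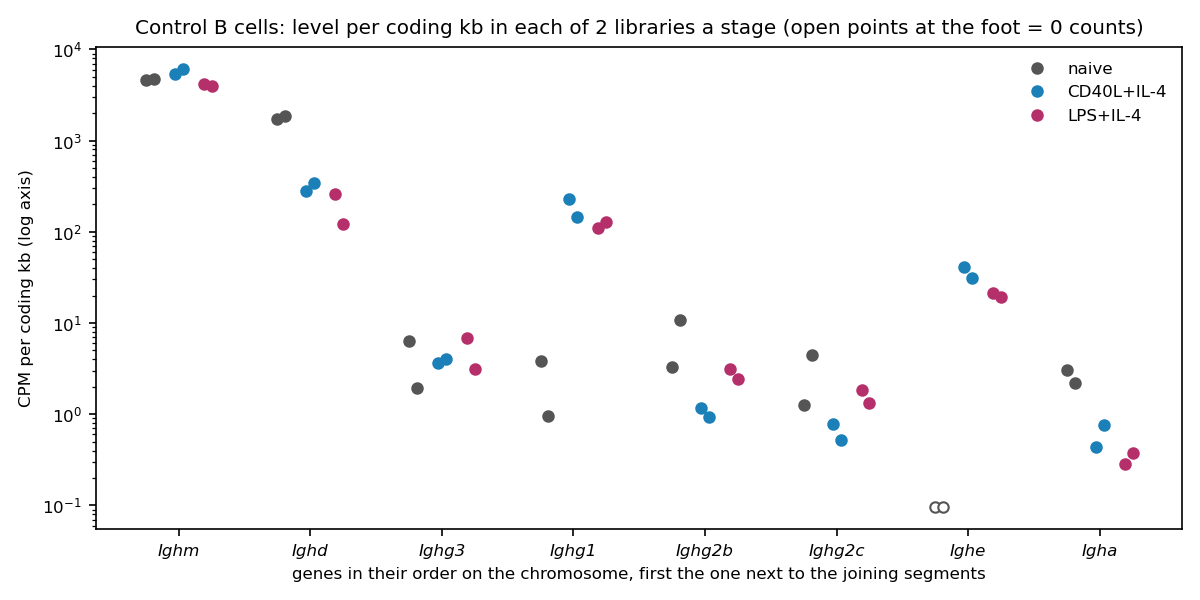
Level of each constant gene in the 6 control libraries, as CPM per kilobase of coding sequence on a log axis, with genes in their order on the chromosome and a point per library coloured by stage. Ighm is highest at all stages, Ighd drops in both cultures, Ighg1 and Ighe rise, and Ighe has 0 counts in naive cells (open points). Judged from the deposited log2 RPKM values, the authors' Ighg1 exon model appears longer than its coding sequence, with smaller gaps for Ighm and Ighd. The Ighg1 level per kilobase may therefore be overstated against the others.

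Against control of the same stage, the members that passed differed with the genotype and stage. In naive cKO, 5 of the 7 members tested passed, all lower, where 10.7% of all genes tested passed in either direction, and the median log2 change over the 7 was -3.11 against -0.01 over all genes. In naive SpiB KO 0 of 7 passed in edgeR, DESeq2 and voom, with 1 at an unadjusted p under 0.05, against 9.62% of all genes. In naive DKO 3 passed, 1 higher and 2 lower, against 21.2%. After CD40L + IL-4, 4 of 8 passed in cKO (2 higher and 2 lower, against 13.5% of all genes) and 3 in DKO (all higher, against 18.3%). In SpiB KO of that culture 0 passed in edgeR, DESeq2 and voom, with 2 at an unadjusted p under 0.05, where 0.134% of all genes passed. After LPS + IL-4, 5 of 8 passed in cKO (2 higher and 3 lower, against 10.5%), 4 in SpiB KO (2 higher and 2 lower, against 3.19%) and 7 in DKO (4 higher and 3 lower, against 20.2%). With the replicate block these 3 counts were 7, 6 and 8, while the shares of all genes given here are those without the block. The comparisons of a stage share its 2 control libraries.

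**Figure D2:**
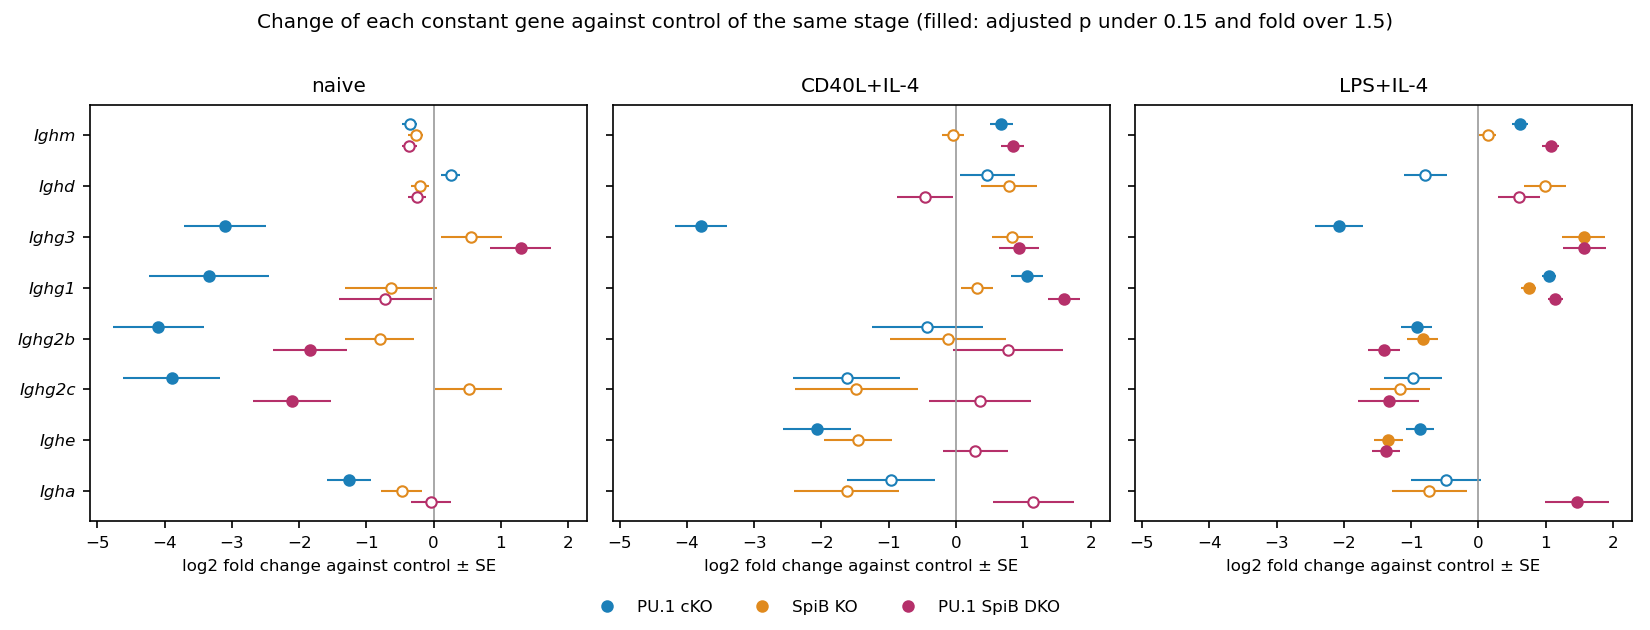
Log2 fold change against control of the same stage, with its standard error, for each constant gene (rows) in naive cells and both cultures (panels), coloured by genotype. Filled points passed an adjusted p under 0.15 and a fold over 1.5. Ighg3 is low in cKO and high in DKO in all panels, and Ighm and Ighg1 lie to the right of 0 in both cultures of these genotypes.

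Comparing the double mutant with each single mutant, 4 members were higher in naive DKO than in cKO (12.9% of all genes passed) and 1 was lower than in SpiB KO (3.05%). After CD40L + IL-4, 3 members were higher in DKO than in cKO (4.06%), and against SpiB KO 4 were higher and 1 lower (15.3%). After LPS + IL-4 the counts were 3 higher than in cKO (12.6%) and 2 higher than in SpiB KO (12.8%). The interaction asks whether the double mutant differs from the sum of the single mutants' log2 changes. It passed for 1 member in naive cells (0.936% of all genes), 2 after CD40L + IL-4 (1.17%) and 2 after LPS + IL-4 (1.48%). Ighg3 was among them at every stage. With the replicate number as a block, which applies to the LPS + IL-4 libraries as described under processing, the last count was 5. The share of 1.48% is that without the block.

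Ighm, the constant region of IgM, was higher in cultured cells without PU.1 than in control cells, and was not higher in naive cells. Naive libraries had 5275 and 5900 CPM in cKO, 5873 and 6069 CPM in SpiB KO and 5671 and 6055 CPM in DKO, all below both naive control libraries. The naive differences were -0.36 in cKO (SE 0.11, adjusted p = 0.093) and -0.36 in DKO (SE 0.11, adjusted p = 0.0511), under the fold of 1.5 in each case.

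After CD40L + IL-4, Ighm stood at 12664 and 14446 CPM in cKO, 8634 and 8069 CPM in SpiB KO and 15303 and 14849 CPM in DKO. The SpiB KO libraries overlapped with control, and every cKO and DKO library was above it. The log2 rise was 0.67 in cKO (SE 0.17, adjusted p = 0.0344) and 0.84 in DKO (SE 0.17, adjusted p = 0.00869). The cKO call was lost without control replicate 1 (0.58, adjusted p = 0.118, below the fold) or without cKO replicate 2 (0.56, adjusted p = 0.313), and the DKO rise was 0.50, below the fold, under quantile normalization.

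After LPS + IL-4 the Ighm values were 9292 and 8896 CPM in cKO, 6487 and 6717 CPM in SpiB KO and 13259 and 12483 CPM in DKO. Here the genotypes formed 4 steps without overlap. The rise was 0.62 in cKO (SE 0.13, adjusted p = 0.0111) and 1.08 in DKO (SE 0.13, adjusted p = 0.000249), and both calls held in each alternative tried. DKO exceeded SpiB KO by 0.94 (SE 0.13, adjusted p = 0.00106) and cKO by 0.46 (SE 0.12, adjusted p = 0.0321, below the fold). The interaction was 0.32 (adjusted p = 0.56), and with the replicate block it passed (0.32, adjusted p = 0.136). The effect of the double loss on Ighm was larger in culture than in naive cells by 1.22 with CD40L + IL-4 (SE 0.18, adjusted p = 0.000164) and by 1.37 with LPS + IL-4 (SE 0.18, adjusted p = 5.53e-05), where 16.8% and 29.6% of all genes had such a difference between stages. Incomplete deletion in the naive cells cannot be told apart from the stage in these differences. Under quantile normalization the first of these was 0.58 and did not pass (adjusted p = 0.187).

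Ighd, the constant region of IgD, passed against control in none of the genotypes at any stage in the main fits. After LPS + IL-4 that depended on the fit, as given below. Naive libraries had 1892 and 2208 CPM in cKO, 1335 and 1682 CPM in SpiB KO and 1366 and 1690 CPM in DKO. Naive cKO was above all other naive libraries and differed from DKO by less than the fold (-0.50 for the double mutant over the single, SE 0.14, adjusted p = 0.049). That difference passed without cKO replicate 1 (-0.60, adjusted p = 0.0931) or DKO replicate 2 (-0.61, adjusted p = 0.069). After CD40L + IL-4 the replicates were far apart, with 501 and 309 CPM in cKO, 657 and 363 CPM in SpiB KO and 294 and 115 CPM in DKO. Of these comparisons DKO against SpiB KO passed (-1.25, SE 0.42, adjusted p = 0.088). It did not pass without DKO replicate 2 (-0.70, adjusted p = 0.369) or without SpiB KO replicate 1 (-0.77, adjusted p = 0.472), nor in DESeq2, and without DKO replicate 1 it was -2.18.

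After LPS + IL-4 Ighd was at 131 and 70.9 CPM in cKO, 320 and 379 CPM in SpiB KO and 289 and 255 CPM in DKO, with control again at 241 and 115 CPM. DKO was above cKO (1.39, SE 0.32, adjusted p = 0.0174), and no comparison with control passed in the main fit. The log2 differences there were -0.79 (adjusted p = 0.167) in cKO, 0.99 (adjusted p = 0.183) in SpiB KO and 0.60 (adjusted p = 0.172) in DKO. The 2 control libraries were far apart. Without control replicate 1 the differences were -0.19 (adjusted p = 0.732), 1.59 (adjusted p = 0.0187) and 1.19 (adjusted p = 0.0113), and without control replicate 2 that of cKO was -1.21 (adjusted p = 0.0245). Replicate 2 was the lower library in 3 of the 4 genotypes, and with the replicate block all 3 comparisons passed, at -0.77 (adjusted p = 0.0416), 1.08 (adjusted p = 0.0209) and 0.66 (adjusted p = 0.0383).

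The balance of IgD and IgM messages is read from the ratio within a library, which no scaling of libraries can move. Per 100 Ighm counts, naive cells held 23.5 and 24.6 Ighd counts in control, 35.9 and 37.4 in cKO, 22.7 and 27.7 for SpiB KO libraries and 24.1 and 27.9 for those of DKO. The cKO pair was thus set apart, at 36.6 ± 1.10 against 24.04 ± 0.804 in control (SD, n = 2). After CD40L + IL-4 the ratio was 3.41 ± 0.207 in control, 3.05 ± 1.29 in cKO, 6.06 ± 2.20 in SpiB KO and 1.35 ± 0.809 in DKO. After LPS + IL-4 it was 2.93 ± 1.40, 1.10 ± 0.431, 5.29 ± 0.497 and 2.11 ± 0.0977 in the same order, so the SpiB KO libraries held the highest ratio in both cultures. No test of these ratios was run, and an exact permutation test of 2 libraries against 2 cannot give a p below 0.333. Zfp318, which favours the IgD splice, had 108 and 182 CPM in naive control cells and was lower in naive SpiB KO (-0.59, SE 0.20, adjusted p = 0.13) and DKO (-0.73, SE 0.20, adjusted p = 0.032). In naive cKO it did not pass, nor did any of the 9 genes tested from its list (10.7% of all genes passed). Zfp318 also did not pass in SpiB KO of either culture. It fell with Ighd from naive to LPS + IL-4 control cells (-1.83, SE 0.32, adjusted p = 5.2e-05), and with CD40L + IL-4 its change was -0.12 (adjusted p = 0.77).

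**Figure D3:**
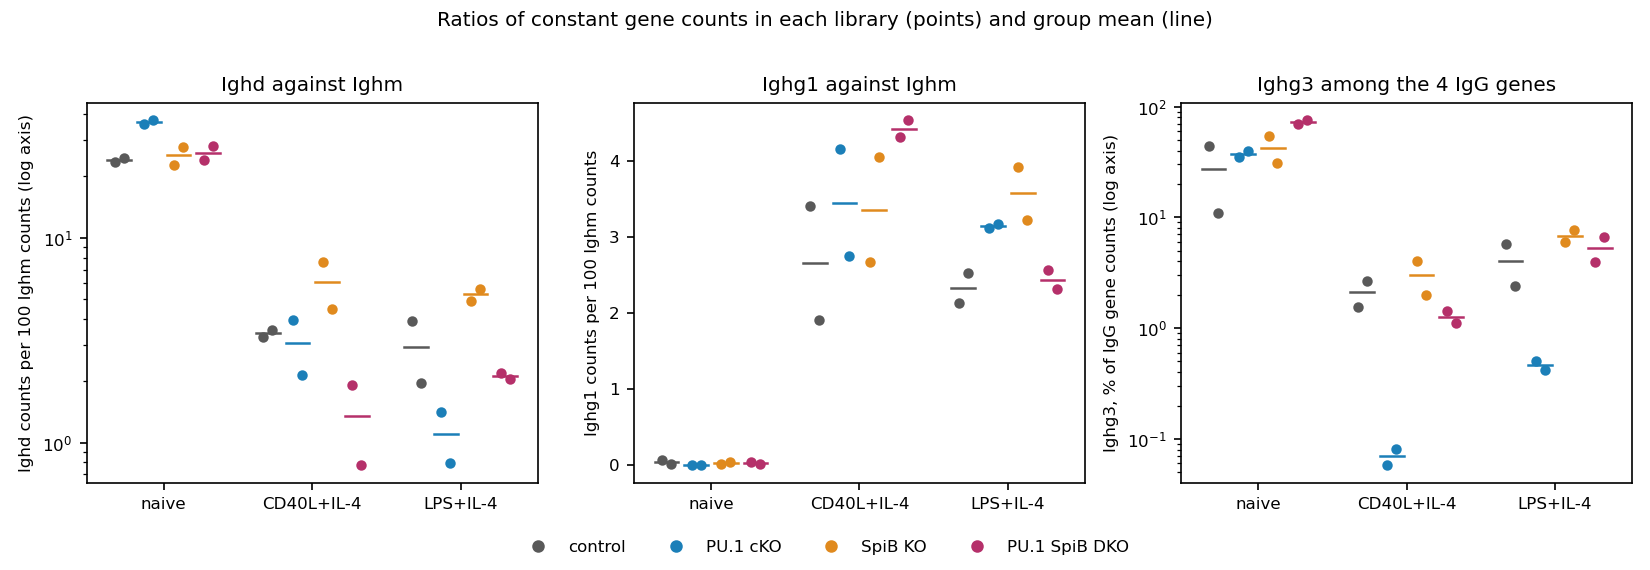
Ratios of counts within each library by stage and genotype: Ighd per 100 Ighm (log axis), Ighg1 per 100 Ighm, and Ighg3 as a percentage of the counts of the 4 IgG genes (log axis), with a point per library and a line at the mean. The naive cKO pair stands above the other naive libraries in Ighd per Ighm (35.9 and 37.4), and the cultured cKO libraries lie lowest in the Ighg3 share.

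Ighg3, the constant region of IgG3, moved in opposite directions in the single PU.1 mutant and the double mutant, at all 3 stages. Naive control libraries held 7.67 and 2.32 CPM, and cKO 0.377 and 0.820 CPM, SpiB KO 8.77 and 6.65 CPM and DKO 13.0 and 13.9 CPM. The cKO libraries lay below, and the DKO libraries above, every other naive library. Ighg3 fell by 3.11 in naive cKO (SE 0.61, adjusted p = 0.0164) and rose by 1.29 in DKO (SE 0.45, adjusted p = 0.0746), and the double mutant exceeded cKO by 4.40 (SE 0.58, adjusted p = 0.000988).

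After CD40L + IL-4 the Ighg3 values were 4.32 and 4.79 CPM in control, 0.305 and 0.324 CPM in cKO, 9.78 and 6.73 CPM in SpiB KO and 9.55 and 7.61 CPM in DKO. The cKO values rest on 3 and 20 counts. The change was -3.79 in cKO (SE 0.39, adjusted p = 0.000184) and 0.94 in DKO (SE 0.30, adjusted p = 0.0675). SpiB KO, above both control libraries, differed by 0.84 (SE 0.30, adjusted p = 1).

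After LPS + IL-4, Ighg3 was at 8.30 and 3.78 CPM in control, 1.48 and 1.2 CPM in cKO, 16.3 and 18.1 CPM in SpiB KO and 14.2 and 20.9 CPM in DKO. It fell by 2.07 in cKO (SE 0.35, adjusted p = 0.00479) and rose by 1.56 in SpiB KO (SE 0.32, adjusted p = 0.0385) and by 1.57 in DKO (SE 0.32, adjusted p = 0.00477). SpiB KO and DKO overlapped in both cultures.

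In direct comparison Ighg3 was 26.4-fold higher in DKO than in cKO after CD40L + IL-4 (4.72, SE 0.38, adjusted p = 6.1e-05) and 12.5-fold higher after LPS + IL-4 (3.65, SE 0.35, adjusted p = 0.000438). The interaction of both losses was 3.84 (SE 0.75, adjusted p = 0.0931) in naive cells, 3.89 (SE 0.49, adjusted p = 0.00543) after CD40L + IL-4 and 2.08 (SE 0.46, adjusted p = 0.118) after LPS + IL-4. The calls of cKO against control and against DKO held at all stages in each alternative tried, as did the CD40L + IL-4 interaction. The size of the naive and LPS + IL-4 falls in cKO depended on control replicate 1: without it they were -1.95 and -1.47. The naive fall was -3.74 without control replicate 2 and -3.77 without cKO replicate 2. Leaving out that cKO library put the naive difference between DKO and cKO at 5.05.

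The smaller Ighg3 changes were less steady. The naive rise in DKO was 0.66 without control replicate 2 (adjusted p = 0.197), 1.30 without DKO replicate 1 (adjusted p = 0.212), 1.27 without its replicate 2 (adjusted p = 0.159) and 2.44 without control replicate 1. After CD40L + IL-4 it was 0.85 without control replicate 1 (adjusted p = 0.264) and 0.69 without DKO replicate 1 (adjusted p = 0.270). The LPS + IL-4 rise in SpiB KO was 1.07 without control replicate 2 (adjusted p = 0.156) and 1.46 without SpiB KO replicate 2 (adjusted p = 0.201), and without control replicate 1 the rises in SpiB KO and DKO were both 2.17. The naive interaction passed without either control library, at 2.68 without replicate 1 and 4.47 without replicate 2, and missed the threshold without any of the other 6 libraries (3.39 to 4.50, adjusted p = 0.169 to 0.359). The LPS + IL-4 interaction passed without control replicate 2 or DKO replicate 1 and was lost without any of the other 6 (1.46 to 2.20, adjusted p = 0.170 to 0.379). Neither of these passed with voom, and the latter missed the threshold with library totals and in 1 fit of all 24 libraries too. As a share of the counts of the 4 IgG genes, Ighg3 made up 2.11 ± 0.786% in CD40L + IL-4 control cells and 0.0695 ± 0.0166% in cKO (SD, n = 2), and 4.06 ± 2.35% and 0.461 ± 0.0592% after LPS + IL-4.

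Ighg1, the constant region of IgG1 and the most abundant of the 4 IgG genes in culture, was higher in activated cells without PU.1. CD40L + IL-4 libraries had 272 and 173 CPM in control, 527 and 398 CPM in cKO, 231 and 327 CPM in SpiB KO and 662 and 674 CPM in DKO. SpiB KO overlapped with control, and the other mutants lay above it. The rise was 1.05 in cKO (SE 0.24, adjusted p = 0.0197) and 1.60 in DKO (SE 0.24, adjusted p = 0.00148), and the double mutant exceeded cKO by 0.55 without passing (SE 0.23, adjusted p = 0.343) and SpiB KO by 1.29 (SE 0.24, adjusted p = 0.00631).

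After LPS + IL-4, Ighg1 was at 131 and 150 CPM in control, 290 and 283 CPM in cKO, 255 and 217 CPM in SpiB KO and 340 and 290 CPM in DKO. All 6 mutant libraries were above both control libraries. The rise was 1.05 in cKO (SE 0.11, adjusted p = 0.000316), 0.75 in SpiB KO (SE 0.11, adjusted p = 0.00859) and 1.14 in DKO (SE 0.11, adjusted p = 7.72e-05). The double mutant was 0.40 above SpiB KO (SE 0.11, adjusted p = 0.0334, below the fold). The interaction was -0.65 (SE 0.15, adjusted p = 0.136), so the double mutant lay below the sum of the single mutants' log2 changes. It passed without control replicate 2 and was lost without any of the other 7 libraries (-0.77 to -0.56, adjusted p = 0.151 to 0.419). It also did not pass with library totals or in 1 fit of all 24 libraries, and in that fit the SpiB KO rise (0.74) did not pass.

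Ighg1 rose together with Ighm in these cultures, and relative to Ighm the genotypes were closer. Per 100 Ighm counts, CD40L + IL-4 libraries held 3.41 and 1.91 Ighg1 counts in control, 4.16 and 2.76 in cKO, 2.67 and 4.05 for SpiB KO libraries and 4.32 and 4.54 for those of DKO. After LPS + IL-4 the values were 2.14 and 2.53, 3.12 and 3.18, 3.93 and 3.22, and 2.57 and 2.32 in the same order, so the DKO libraries overlapped with control while those of each single mutant were above it.

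In naive cells Ighg1 was near the limit of detection: 0.0629 and 0.504 CPM in cKO, from 1 and 8 counts, 1.39 and 2.42 CPM in SpiB KO and 2.49 and 1.25 CPM in DKO, beside 4.50 and 1.12 CPM in control. The difference of cKO from control was -3.34 (SE 0.89, adjusted p = 0.0548) and that of DKO from cKO 2.62 (SE 0.91, adjusted p = 0.113). Without control replicate 1 the former was -1.97 (adjusted p = 0.191), without control replicate 2 it was -4.03, without cKO replicate 1 it was -2.53 (adjusted p = 0.297) and without cKO replicate 2 it was -5.40. The latter was 1.81 without cKO replicate 1 (adjusted p = 0.432), 4.66 without cKO replicate 2 and 2.00 without DKO replicate 1 (adjusted p = 0.398), and it did not pass with voom. The effect of the double loss on Ighg1 was larger after CD40L + IL-4 than in naive cells by 2.37 (SE 0.59, adjusted p = 0.014) and after LPS + IL-4 by 1.82 (SE 0.59, adjusted p = 0.0411). Both rest on naive control replicate 1, without which they were 0.96 (adjusted p = 0.462) and 0.41 (adjusted p = 0.730). Without naive control replicate 2 they were 3.08 and 2.53, without naive DKO replicate 1 they were 2.97 and 2.42, and without its replicate 2 the LPS + IL-4 difference was 1.36 (adjusted p = 0.170).

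Ighe, the constant region of IgE, was detected in both cultures and not in naive cells, and was lower in cKO than in control. After CD40L + IL-4 it stood at 60.2 and 46.5 CPM in control, 9.05 and 15.5 CPM in cKO, 10.3 and 28.8 CPM in SpiB KO and 31.6 and 100 CPM in DKO. Both cKO and SpiB KO were below the control libraries without overlap, while the DKO pair lay on either side of them. The difference from control was -2.07 in cKO (SE 0.51, adjusted p = 0.0289), -1.46 in SpiB KO (SE 0.50, adjusted p = 0.939) and 0.29 in DKO (SE 0.48, adjusted p = 0.737). The SpiB KO difference was -0.90 without its replicate 1 and -2.38 without its replicate 2, neither passing. It passed when the filter on low counts was left out. The estimate hardly moved there (-1.44), while the adjusted p went from 0.939 to 2.07e-09. In that setting Ighd in LPS + IL-4 cKO, which missed the threshold in the main fit at -0.79, also stayed at -0.79. Its adjusted p there was 2.82e-13. A pass that needs the filter left out is therefore not taken as support for a difference. DKO exceeded cKO by 2.35 (SE 0.51, adjusted p = 0.047) and SpiB KO by 1.74 (SE 0.51, adjusted p = 0.0526), and the interaction was 3.81 (SE 0.72, adjusted p = 0.0623).

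The high values of Ighe in the double mutant came from DKO replicate 2. Without it the differences from cKO, SpiB KO and control were 1.39 (adjusted p = 0.298), 0.78 (adjusted p = 0.455) and -0.66 (adjusted p = 0.496), and the interaction was 2.83 (adjusted p = 0.123). The difference from cKO was also lost without cKO replicate 1 (2.04, adjusted p = 0.215), and that from SpiB KO without SpiB KO replicate 1 (1.19, adjusted p = 0.284). The interaction was 3.60 without control replicate 1 (adjusted p = 0.228), 3.97 without control replicate 2 (adjusted p = 0.194) and 4.72 without SpiB KO replicate 2, which put the difference from SpiB KO at 2.68. The fall in cKO held in each alternative tried.

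After LPS + IL-4 Ighe was lower in all 3 mutants. It had 31.7 and 28.4 CPM in control, 16.9 and 15.4 CPM in cKO, 15 and 8.41 CPM in SpiB KO and 12.9 and 10.6 CPM in DKO, with every mutant library below both control libraries. The fall was 0.87 in cKO (SE 0.21, adjusted p = 0.0243), 1.34 in SpiB KO (SE 0.21, adjusted p = 0.0135) and 1.37 in DKO (SE 0.21, adjusted p = 0.00124). In 1 fit of all 24 libraries the falls in cKO (-0.89) and SpiB KO (-1.35) did not pass. The interaction was 0.84 (adjusted p = 0.34) and passed with the replicate block (0.86, adjusted p = 0.0607) and in DESeq2. Without SpiB KO replicate 1 it was 1.28. It also passed without the filter, with the limit given above for such a pass. Ighe and Ighg1, which both rose in cultured control cells, thus moved in opposite directions in each mutant of this culture. The effect of the double loss on Ighe was lower after LPS + IL-4 than after CD40L + IL-4 by -1.75 (SE 0.62, adjusted p = 0.0714), where 28.6% of all genes had a difference of this kind. Without CD40L + IL-4 DKO replicate 2 this was -0.79 (adjusted p = 0.451), and it also missed the threshold without CD40L + IL-4 control replicate 2 (-1.59), LPS + IL-4 control replicate 2 (-1.78) or LPS + IL-4 DKO replicate 2 (-1.62).

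**Figure D4:**
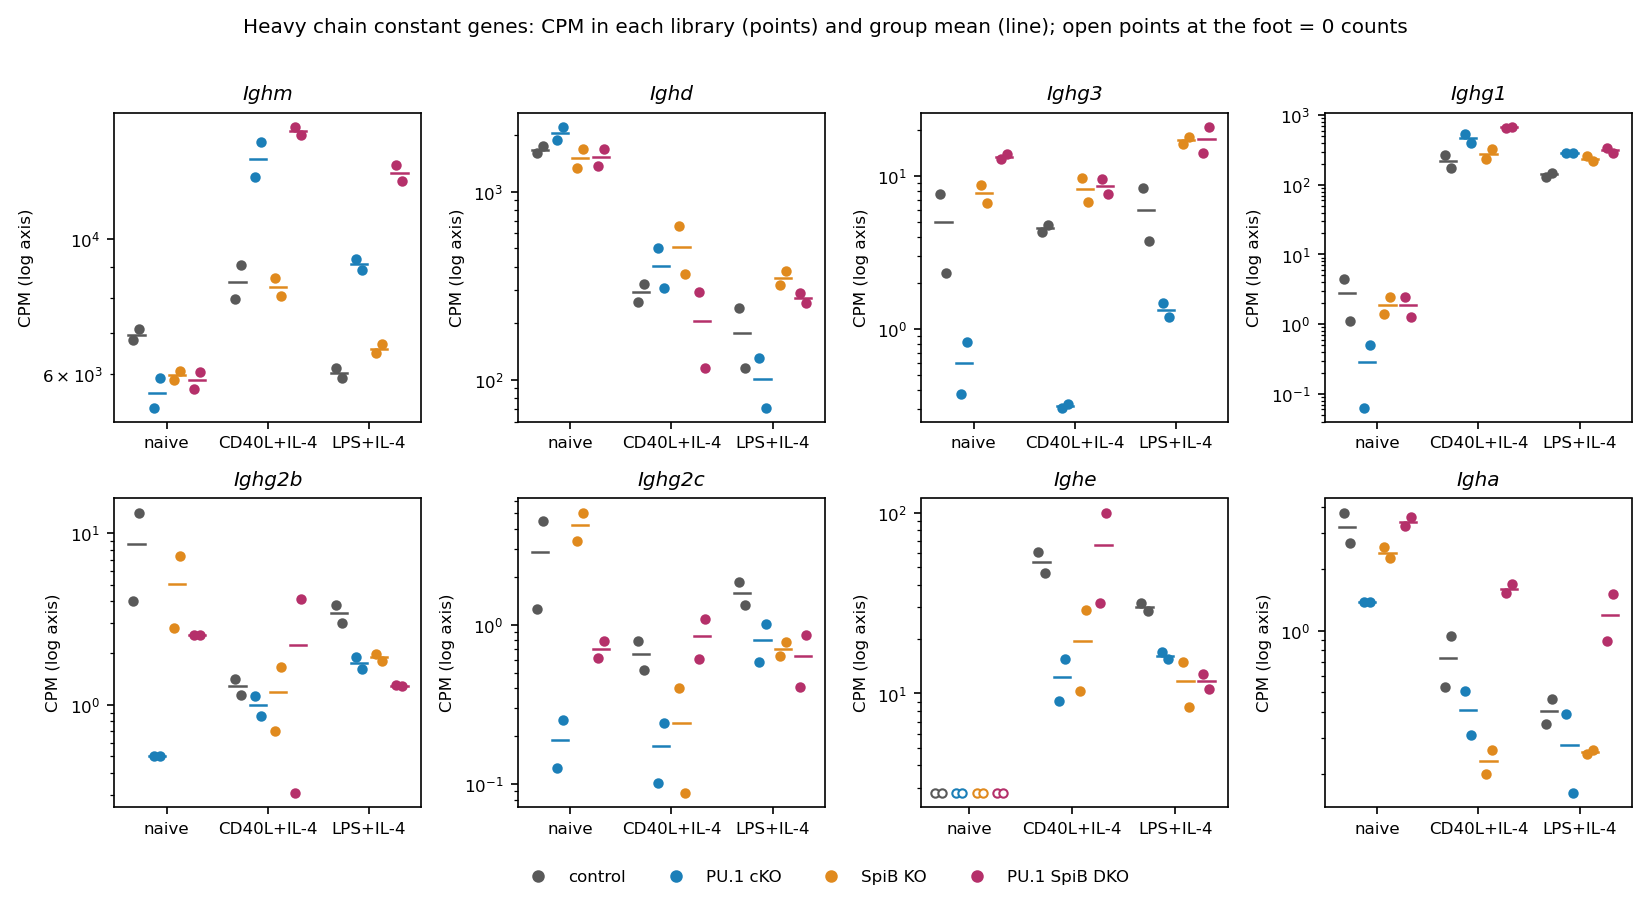
CPM of the 8 constant genes in all 24 libraries on log axes, by stage and genotype, with a point per library and a line at the group mean. Ighm in culture climbs in cKO and DKO, Ighg3 lies lowest in cKO at every stage, and Ighe has 0 counts in the 8 naive libraries (open points) and is below control in all mutant libraries after LPS + IL-4.

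Ighg2b and Ighg2c, the constant regions of IgG2b and IgG2c, were between 0.0875 and 13.1 CPM in all libraries. In naive cells Ighg2b had 4.03 and 13.1 CPM in control, 0.503 and 0.504 CPM in cKO, 2.79 and 7.31 CPM in SpiB KO and 2.55 and 2.56 CPM in DKO. Ighg2c had 1.26 and 4.50 CPM, 0.126 and 0.252 CPM (2 and 4 counts), 3.37 and 5.06 CPM, and 0.621 and 0.796 CPM in the same order. For both genes cKO and DKO lay below control and SpiB KO. Ighg2b fell by 4.09 in cKO (SE 0.68, adjusted p = 0.00773) and by 1.84 in DKO (SE 0.55, adjusted p = 0.043). Ighg2c fell by 3.90 (SE 0.72, adjusted p = 0.0127) and by 2.10 (SE 0.58, adjusted p = 0.0325). Ighg2c in DKO was also below SpiB KO (-2.62, SE 0.57, adjusted p = 0.0534), a call lost without any of the 4 libraries compared (-2.33 to -2.85, adjusted p = 0.170 to 0.282).

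The cKO falls passed without any single library and were -3.06 for Ighg2b and -2.76 for Ighg2c without control replicate 2, and -4.69 and -4.53 without control replicate 1. The DKO falls were lost without control replicate 2 (-0.80 for Ighg2b, adjusted p = 0.348, and -0.96 for Ighg2c, adjusted p = 0.289) and without DKO replicate 1 (-1.88, adjusted p = 0.168, and -1.98, adjusted p = 0.162), and were -2.45 and -2.74 without control replicate 1. Ighg2b was higher in DKO than in cKO by 2.25 (SE 0.72, adjusted p = 0.0864), which was lost without any of those 4 libraries (2.21 to 2.30, adjusted p = 0.180 to 0.318) and with voom (1.63).

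After CD40L + IL-4 no comparison of either gene with control passed. Ighg2b was at 1.41 and 1.15 CPM in control, 1.12 and 0.860 CPM in cKO, 0.698 and 1.66 CPM in SpiB KO and 0.305 and 4.15 CPM in DKO, the lower of the last pair resting on 3 counts. Ighg2c was at 0.794 and 0.521 CPM, 0.102 and 0.243 CPM, 0.399 and 0.0875 CPM, and 0.609 and 1.09 CPM. The Ighg2c values rest on 1 to 15 counts a library. The effect of the double loss after CD40L + IL-4 exceeded that in naive cells by 2.64 for Ighg2b (SE 0.93, adjusted p = 0.0862) and 2.47 for Ighg2c (SE 0.92, adjusted p = 0.107), and for Ighg2b the LPS + IL-4 effect was lower than the CD40L + IL-4 effect by -2.27 (SE 0.93, adjusted p = 0.104). Both Ighg2b values turned sign without CD40L + IL-4 DKO replicate 2, to -0.13 and 0.49, and without its replicate 1 they were 3.49 and -3.12. The first Ighg2b difference passed without CD40L + IL-4 DKO replicate 1 or naive control replicate 1 and in no other case where 1 of its 8 libraries was left out. The same held for Ighg2c, which was 3.09 without naive control replicate 1 and 1.38 without naive control replicate 2 (adjusted p = 0.437). The second Ighg2b difference passed only without CD40L + IL-4 DKO replicate 1. None of the 3 differences passed with voom.

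After LPS + IL-4 Ighg2b was lower in every mutant: 3.82 and 2.98 CPM in control, 1.89 and 1.60 CPM in cKO, 1.98 and 1.79 CPM in SpiB KO and 1.30 and 1.28 CPM in DKO. The fall was 0.92 (SE 0.23, adjusted p = 0.0293), 0.83 (SE 0.23, adjusted p = 0.126) and 1.40 (SE 0.24, adjusted p = 0.00214). The SpiB KO call was lost without any of the 8 libraries of the stage (-0.99 to -0.66, adjusted p = 0.173 to 0.462), in DESeq2, with library totals, with the compared groups alone and in 1 fit of all 24 libraries, and the cKO call without cKO replicate 2 (-0.85, adjusted p = 0.169) and in that same fit. Ighg2c, at 1.85 and 1.33 CPM in control, had 0.584 and 1.02 CPM in cKO, 0.633 and 0.785 CPM in SpiB KO and 0.408 and 0.864 CPM in DKO, all below control. It passed in DKO (-1.33, SE 0.46, adjusted p = 0.0494), which was -0.85 without DKO replicate 1 (adjusted p = 0.281) and -1.97 without its replicate 2. The differences of -0.98 in cKO (adjusted p = 0.215) and -1.16 in SpiB KO (adjusted p = 0.288) did not pass. With the replicate block they did, at -0.97 (adjusted p = 0.111) and -1.11 (adjusted p = 0.144). With voom that of cKO passed too (-1.23, adjusted p = 0.0837), and that of SpiB KO did not.

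Igha, the constant region of IgA and the last gene of the locus, was lower in naive cKO and higher in LPS + IL-4 DKO. Naive values were 3.77 and 2.67 CPM in control, 1.38 and 1.39 CPM in cKO, 2.55 and 2.25 CPM in SpiB KO and 3.23 and 3.58 CPM in DKO. cKO lay below all other naive libraries, by 1.26 on the log2 scale against control (SE 0.33, adjusted p = 0.0499) and by 1.22 against DKO (SE 0.32, adjusted p = 0.0396). Without cKO replicate 1 or 2 the first difference was -1.26 or -1.27 with an adjusted p of 0.233 or 0.205. The second was lost without either cKO library or DKO replicate 2 (1.19 to 1.23, adjusted p = 0.152 to 0.200), and with voom.

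After CD40L + IL-4 Igha was at 0.529 and 0.938 CPM in control, 0.509 and 0.308 CPM in cKO, 0.200 and 0.262 CPM in SpiB KO and 1.52 and 1.68 CPM in DKO. The double mutant pair was the highest. It exceeded SpiB KO by 2.78 (SE 0.72, adjusted p = 0.0333) and cKO by 2.12 (SE 0.60, adjusted p = 0.129), and the difference of 1.15 from control did not pass (SE 0.61, adjusted p = 0.239). The difference from SpiB KO was lost without SpiB KO replicate 1 (2.61, adjusted p = 0.176), and that from cKO without any library of control, cKO or DKO (1.67 to 2.33, adjusted p = 0.156 to 0.540) and in DESeq2.

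After LPS + IL-4 the Igha values were 0.352 and 0.461 CPM in control, 0.394 and 0.160 CPM in cKO, 0.250 and 0.262 CPM in SpiB KO and 0.892 and 1.5 CPM in DKO, again the highest pair. It rose by 1.47 against control (SE 0.48, adjusted p = 0.0405), exceeded cKO by 1.95 (SE 0.47, adjusted p = 0.021) and SpiB KO by 2.20 (SE 0.51, adjusted p = 0.017). The rise against control did not pass with voom, and without cKO replicate 1 the difference from cKO was 2.78. The interaction was 2.68 (adjusted p = 0.208) and passed with the replicate block (2.58, adjusted p = 0.0977). The effect of the double loss was larger than in naive cells by 1.45 (SE 0.56, adjusted p = 0.0815), which was lost without any of 5 libraries, namely both LPS + IL-4 control libraries, LPS + IL-4 DKO replicate 2, naive control replicate 1 and naive DKO replicate 1 (0.99 to 1.71, adjusted p = 0.152 to 0.295).

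Summed over the 8 genes, heavy chain constant exons took 0.867 ± 0.0331% of all counts in naive control cells (SD, n = 2), 0.909 ± 0.0757% after CD40L + IL-4 and 0.638 ± 0.0237% after LPS + IL-4. In DKO the shares were 0.741 ± 0.0501%, 1.60 ± 0.0389% and 1.35 ± 0.0604%, and in cKO 0.764 ± 0.0665%, 1.44 ± 0.104% and 0.950 ± 0.0329%. Ighm was 91.1 to 95.7% of this sum in the genotype means of cultured cells and 73.2 to 80.4% in naive cells.

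Of 10 light chain and receptor partner genes listed, 9 were measured. In CD40L + IL-4 cells 2 rose and 0 fell in cKO (13.5% of all genes passed), and 4 rose and 1 fell in DKO (18.3%), with a median of 0.49 against 0.00 over all genes. In LPS + IL-4 cells 1 rose in cKO (10.5% of all genes passed) and 4 in DKO (20.2%). Igkc, the kappa light chain, rose in CD40L + IL-4 cells from 1667 and 2366 CPM to 3055 and 3396 CPM in cKO (0.68, SE 0.19, adjusted p = 0.052) and to 3179 and 3742 CPM in DKO (0.79, SE 0.19, adjusted p = 0.020). Naive DKO cells instead had less Igkc than control, 2514 and 2496 CPM against 5100 and 4891 CPM (-1.11, SE 0.12, adjusted p = 0.00027), while Ighm there was below control by less than the fold required. Igj, the J chain that joins IgM and IgA polymers, rose by 3.05 in LPS + IL-4 DKO (SE 0.25, adjusted p = 3.3e-05) and by 1.79 in that genotype after CD40L + IL-4 (SE 0.40, adjusted p = 0.013). Iglc1, a lambda light chain, rose in the double mutant of both cultures (0.95, adjusted p = 0.00811, and 0.88, adjusted p = 0.00118). Cd79a, which signals for the surface receptor together with Cd79b, rose in LPS + IL-4 DKO (0.66, adjusted p = 0.00293), where Cd79b was at 0.30 (adjusted p = 0.082). In control cells 7 of these 9 genes fell with CD40L + IL-4 and 8 with LPS + IL-4, where 48.8% and 63.9% of all genes passed in either direction.

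Of 10 listed genes for splicing and transcription of the heavy chain message, 4 rose and 1 fell in CD40L + IL-4 cKO (13.5% of all genes passed) and 5 rose and 2 fell in DKO (18.3%). In LPS + IL-4 cells 6 rose in cKO (10.5%) and 7 in DKO (20.2%), with 0 falls. Ell2, an elongation factor that favours the secreted form of the heavy chain message, had 65.9 and 66.1 CPM in LPS + IL-4 control, 234 and 219 CPM in cKO (1.80, SE 0.10, adjusted p = 1.3e-05), 99.9 and 92.7 CPM in SpiB KO (0.55, SE 0.10, adjusted p = 0.027) and 450 and 358 CPM in DKO (2.59, SE 0.11, adjusted p = 7.9e-07). Prdm1, which drives plasma cell differentiation, rose by 2.55 in cKO after CD40L + IL-4 (SE 0.18, adjusted p = 9.4e-06) and by 1.58 in DKO after LPS + IL-4 (SE 0.12, adjusted p = 1.8e-05). The Ell2 difference in SpiB KO was below the fold, and this list had 0 calls in SpiB KO of either culture.

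Of 14 listed genes of IL-4 signalling, CD40 signalling and switching, 2 rose and 5 fell in naive cKO (10.7% of all genes passed), 3 rose and 2 fell in that genotype in each culture (13.5% and 10.5%), and 5 rose and 2 fell in CD40L + IL-4 DKO (18.3%). Tbx21, which encodes T-bet and favours switching to Ighg2c, had 7.41 and 9.13 CPM in naive control, 22.1 and 26.2 CPM in cKO (1.51, SE 0.17, adjusted p = 0.00086) and 67.5 and 75.5 CPM in DKO (3.00, SE 0.17, adjusted p = 1e-05). After LPS + IL-4 it went from 0.132 and 0.284 CPM in control to 8.54 and 9.73 CPM in DKO (5.24, SE 0.31, adjusted p = 5e-06). Ighg2c was lower than control in the same groups. Stat6, which carries the IL-4 signal, passed in no genotype at any stage, with log2 changes from control of -0.42 to 0.03. Il4ra, the IL-4 receptor chain, rose by 0.72 (SE 0.17, adjusted p = 0.017) in CD40L + IL-4 DKO and by 1.22 (SE 0.11, adjusted p = 5.1e-05) in LPS + IL-4 DKO, and Cd40 was lower in cKO and DKO of all stages.

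In naive cKO, where Ighg3, Ighg1, Ighg2b, Ighg2c and Igha were all low, Igj stood at 0.943 and 0.693 CPM against 15.9 and 7.66 CPM in control (-3.88, SE 0.80, adjusted p = 0.020), and Sdc1, the gene of CD138, at 3.46 and 3.97 CPM against 16.9 and 11.0 CPM (-1.95, SE 0.25, adjusted p = 0.0017). Of 6 plasma cell markers measured there, 2 fell and 1, Mzb1, rose, where 10.7% of all genes passed. The summed level of the plasma cell list was higher in naive cKO, at 958.8 to 964.9 CPM against 752.5 to 754.7 CPM in naive control. Whether a few antibody-secreting or switched cells among the naive libraries carried these differences was not tested. In naive DKO, where Ighg3 was high, 5 of 5 plasmacytoid dendritic cell markers were higher, as they were in SpiB KO, in which no member passed. The summed marginal zone and B1 list ran from 648 to 901 CPM in naive control and from 857.7 to 1024 CPM in DKO. Of 5 markers of marginal zone and B1 B cells, 4 were higher in naive DKO (21.2% of all genes passed) and 2 in SpiB KO (9.62%). In naive cKO, where Ighg3 was low, 1 was higher and 1 lower (10.7%). The median log2 change of the 5 markers there was 0.63, against -0.01 over all genes. The part of these cells in the Ighg3 values was not tested. In CD40L + IL-4 cells 5 of 7 plasma cell markers rose in cKO (13.5% of all genes passed) and 6 of 7 in DKO (18.3%), with Ighm and Ighg1, although the sort was for CD138- cells. The summed level of the plasma cell list ranged from 752.5 to 1201 CPM in naive libraries, 1632 to 4156 CPM after CD40L + IL-4 and 1147 to 2597 CPM after LPS + IL-4.

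Across the 24 libraries, the genes whose log2(CPM + 1) followed each member most closely were found by Pearson's r among 11581 genes. The libraries share stages and genotypes, so these are descriptions of the series and not tests. Ighm was followed by heavy chain segments of the same locus, Ighv1-81 (r = 0.967), Ighv5-4 (r = 0.958) and Ighj3 (r = 0.957). Ighd was nearest to Ypel3 (r = 0.975), Add3 (r = 0.974) and Klhl24 (r = 0.973). The likeness of Ighg1 was closest to Ube2c (r = 0.991), Pole2 (r = 0.990) and Cdca3 (r = 0.988), genes of DNA replication and cell division. Ighg2b and Ighg2c were nearest to each other (r = 0.835), and next to Arrb2 (r = 0.813 and 0.793), with Bnip1 (r = 0.732) as the third for Ighg2b and Il21r (r = 0.759) for Ighg2c. Igha was nearest to Ly6d (r = 0.913), Tcf7 (r = 0.905) and Endod1 (r = 0.896). Ighg3 was nearest to Csf2rb (r = 0.853), Gm20746 (r = 0.763) and Gpr55 (r = 0.761), and among the members its r with the others lay close to 0, from -0.06 with Ighm to 0.22 with Igha. Ighe was below the level required in naive cells and was left out.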

How the data were processed

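RNA-seq was made with RNeasy and TruSeq kits, which do not mark strand, on a NextSeq sequencer. Per the study's methods, the authors aligned reads with Subread to GRCm38/mm10, kept uniquely mapped reads and counted those over exons of NCBI RefSeq build 38.1 with featureCounts, and the deposited values are raw counts per gene. Tables of log2 RPKM, filtered and quantile normalized by the authors with limma, were deposited for each sample as well. Those of the LPS + IL-4 libraries list all 8 genes and were used only to compare gene lengths, and the naive and CD40L + IL-4 lists hold none of the 8. No trimming is described in the sources used here, although the name of the CD40L + IL-4 table mentions it. There were 0 unmapped columns. Rows without a symbol (517, 0.162% of counts) were kept in the library sizes and, where their counts sufficed, in the tests.

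Members were matched by symbol. The 8 libraries of a stage were fitted together in edgeR 4.0.16 (R 4.3.3) with TMM scaling and the quasi-likelihood test, after a filter of 0.5 CPM in 2 libraries, with Benjamini-Hochberg adjustment over all genes tested. Control cells of different stages, and the effect of the double loss between stages, were compared in a fit of all 24 libraries and 12 groups. Calls needed an adjusted p under 0.15 and, except for interactions and differences between stages in the effect of the double loss, a fold over 1.5. DESeq2 1.42.0, voom with quantile normalization (limma 3.58.1), library totals without TMM, scaling without immunoglobulin genes, no filter, the compared groups alone, all 24 libraries in 1 fit, a threshold of 0.05, a replicate block and leaving out each library in turn were the alternatives. With 2 libraries a group, p-values rest on the spread between these samples. For each gene that spread was estimated over all groups of a fit and moderated across genes. Libraries outside a comparison can therefore change its calls. Totals per library, given with the results, limit the low genes. Limits from counts cover counting error only. The tests were tried on simulated counts first.

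Replicate numbers come from the sample labels. Deviations of same-numbered libraries from their group means correlated at 0.386 to 0.514 in all 6 genotype pairs of LPS + IL-4 cells, so the numbers were taken to pair those libraries. The range was 0.0918 to 0.250 in naive cells and -0.0702 to 0.266 after CD40L + IL-4, with 5 and 4 of 6 pairs over 0.1, and those numbers were not taken as pairs.

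All 8 genes are named in each comparison. From other lists, a few genes were named in any case (Zfp318, Igj, Igkc, Iglc1, Cd79a, Cd79b, Il4ra, Stat6, Sdc1, and 1 that is not reported here), and otherwise at most the 4 largest calls of a list. For each member, the 3 genes most like it were taken. Members and lists were chosen with earlier results of these data known.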

Additional observations from a re-analysis of the deposited data

Results flagged for a closer look

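These results differed between conditions by a test of the difference itself. In edgeR's quasi-likelihood fit, the log2 interaction of the loss of PU.1 and of SpiB on Ighg3 was 3.836 in naive cells, 3.886 after CD40L + IL-4 and 2.084 after LPS + IL-4: the single PU.1 mutant had less Ighg3 than control and the double mutant more. The interaction was 3.809 for Ighe after CD40L + IL-4 and -0.6533 for Ighg1 after LPS + IL-4.

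The effect of the double loss also differed between stages, as it did for many other genes. Of all genes, 16.8% passed this test for CD40L + IL-4 minus naive and 29.6% for LPS + IL-4 minus naive. For LPS + IL-4 minus CD40L + IL-4 the share was 28.6%, and 2 of the 8 members passed. After CD40L + IL-4 the effect exceeded the naive effect by 1.221 for Ighm, 2.367 for Ighg1, 2.636 for Ighg2b and 2.475 for Ighg2c on the log2 scale. After LPS + IL-4 it exceeded the naive effect by 1.373 for Ighm, 1.819 for Ighg1 and 1.448 for Igha. Between the cultures, the LPS + IL-4 effect was below the CD40L + IL-4 effect for Ighg2b (-2.271) and Ighe (-1.747). Which of these rest on 1 library is stated with each result above.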

How the results depend on the processing

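Of the values for single genes under the alternatives, 1382 kept their direction and side of the threshold, 175 missed it, 37 newly passed it and 6 changed sign. The sign changes were those of Ighm in LPS + IL-4 over naive control cells with voom (0.61), Ighm in CD40L + IL-4 over naive control cells without CD40L + IL-4 control replicate 2 (-0.0095, and 0.22 without replicate 1), and Ighg2c in LPS + IL-4 over naive control cells without naive control replicate 2 (0.070, and -1.64 without replicate 1). The others followed the omission of CD40L + IL-4 DKO replicate 2: Ighe in DKO over control (-0.66, and 0.86 without replicate 1), and the Ighg2b effect of the double loss in CD40L + IL-4 minus naive (-0.13, highest 3.49) and in LPS + IL-4 minus CD40L + IL-4 (0.49, lowest -3.12).

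The number of genes called moved by more than 1.5 times in these cases. Under an adjusted p of 0.05 it was 2 for naive DKO against cKO, 0 for naive DKO against SpiB KO, 0 for the naive interaction, 3 for CD40L + IL-4 DKO against SpiB KO, 1 for that culture's interaction, 0 for the LPS + IL-4 interaction, 0 between cultured control cells, and 2 and 0 for the double loss in CD40L + IL-4 minus naive and LPS + IL-4 minus CD40L + IL-4. DESeq2 gave 3 for the naive interaction and 2 between cultured control cells. Voom gave 1 for naive DKO against cKO, 0 for the naive interaction, 5 for LPS + IL-4 DKO against cKO, 1 for that culture's interaction and 1 for the double loss in CD40L + IL-4 minus naive. Library totals gave 0 for the LPS + IL-4 interaction. Without the filter the counts were 1 for naive SpiB KO against control, 3 for naive DKO against SpiB KO, 4 for each interaction, 2 for CD40L + IL-4 SpiB KO against control and 5 for LPS + IL-4 minus CD40L + IL-4. Adjusted p-values of the unfiltered fits could fall far with little change in the estimate, as given with Ighe. These unfiltered counts are therefore not taken as support. The compared groups alone gave 2 for naive DKO against SpiB KO. All 24 libraries in 1 fit gave 2, 4 and 1 for the naive, CD40L + IL-4 and LPS + IL-4 interactions, and 3 and 1 for LPS + IL-4 cKO and SpiB KO against control. The causes were not tested.

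With the replicate block the interaction counts were 3, 4 and 5 in naive, CD40L + IL-4 and LPS + IL-4 cells, and the double loss in LPS + IL-4 minus CD40L + IL-4 gave 4. No share of all genes is given for the fits with the block. In naive and CD40L + IL-4 cells the samples share only a number. Calls of single genes that the block changed in LPS + IL-4 cells are given with the results, and it changed no other call there.

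Leaving out 1 library at a time gave, in naive cells, 3 to 5 calls for cKO, 0 to 2 for SpiB KO and 0 to 3 for DKO against control, 2 to 5 for DKO against cKO, 0 to 1 for DKO against SpiB KO and 0 to 3 for the interaction. After CD40L + IL-4 it gave 1 to 4 for DKO against cKO, 2 to 6 for DKO against SpiB KO and 1 to 3 for the interaction. After LPS + IL-4 it gave 2 to 4 for SpiB KO against control, 1 to 3 for DKO against SpiB KO and 0 to 2 for the interaction. Between cultured control cells it gave 1 to 3, and for the double loss 2 to 4 in CD40L + IL-4 minus naive, 1 to 3 in LPS + IL-4 minus naive and 0 to 3 in LPS + IL-4 minus CD40L + IL-4.

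With 2 libraries a group, a single library decides many calls of the low genes. Ighg1, Ighg2b and Ighg2c in naive cells and Ighg2b, Ighg2c and Igha in culture rest on few counts, so smaller changes of these genes were not detectable at this depth. Scaling by totals moved the median of all genes by 0.112 in naive DKO against control, 0.180 in either culture against naive control cells, -0.143 in CD40L + IL-4 minus naive and 0.112 in LPS + IL-4 minus CD40L + IL-4. Germline, switched, membrane and secreted messages were counted together.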
